A study of Mus musculus with 147 samples.

Results

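Id1, Id2, Id3 and Id4 encode the inhibitor of DNA binding proteins, and the 4 genes were taken by name from the 31053 genes of the count table. They were followed through male germ cell development in mice, in single cells collected from early embryos at E6.5 to adult testes. Males were selected by PCR for Sry at E10.5 and E11.5. No sexing is described for E6.5 to E9.5, and part of the E10.5 cells carry no sex label. Cells of E8.5 to E10.5 came from whole embryos. The offspring of C57BL/6 females and males homozygous for the Blimp1-mVenus and Stella-ECFP reporters (BVSC) were used as wild type. The Helq null mice descended from chimeras made with BVSC embryonic stem cells that carried an 8-nt deletion in exon 1 of both Helq alleles. Wild-type cells numbered 11896 in 61 pools, where a pool is all cells of 1 time-point and replicate, and Helq null cells numbered 1136 in 9 pools. From E8.5 to E18.5 germ cells were sorted by the reporters, with Stella-ECFP alone used from E14.5, and gonads of E11.5 to E18.5 also gave a Negative gate. After birth, cells with the look of germ cells were picked by hand, and PND30 also gave cells sorted by DNA content.

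A pool held 15163519 to 197524235 UMIs, with a median of 42133622. Median depth per cell ranged from 178018 to 500849 UMIs between wild-type pools. The 147 libraries drew on 96 cell barcodes, each found in 2 or more libraries, and no library held the same barcode more than once. Cells were clustered and named from marker genes, which gave 8396 germ-like, 594 Sertoli-like and 593 interstitial-like wild-type cells, and 51 germ-like pools of at least 10 cells. The only germ-like pool at E8.5 came from replicate 2, and the only one at E17.5 came from replicate 2. Values below are CPM, the UMIs of a gene per 1000000 UMIs of all cells of a class in a pool, and the replicate is the pool. The p-values measure the spread between pools of cells, since the labels do not tie pools to single animals.

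Id proteins carry a helix-loop-helix dimerisation domain but no basic region. They pair with the E proteins Tcf3, Tcf4 and Tcf12 and keep them from binding DNA with tissue-specific partners. Id genes are classic direct targets of BMP signalling through Smad1, Smad5 and Smad9, and BMP signals also specify primordial germ cells (PGCs). Id4 is a marker of spermatogonial stem cells. In the annotation (GRCm38), Id1 lies at chr2:152736251-152737410 on the plus strand, Id2 at chr12:25093799-25097140 on the minus strand, Id3 at chr4:136143497-136145755 on the plus strand and Id4 at chr13:48261228-48266026 on the plus strand. Id4 overlaps 2 antisense genes on the minus strand, A330033J07Rik (chr13:48044231-48262623) and Gm49291 (chr13:48239054-48262591). The shared stretch lies at the start of each gene, whereas UMIs here come from the 3′ end of transcripts. Reads within that stretch could not be assigned to a gene without a stated strand setting. Over the germ-like pools of E8.5 to PND10 these antisense genes had medians of 0.114 and 0.794 CPM, against 29.3 CPM for Id4. Their highest values were 11.8 and 8.06 CPM, and they were not low beside Id4 in every pool. At E16.5 A330033J07Rik was at 10.1 and 9.68 CPM, against a mean of 11.2 CPM for Id4. At E18.5 it was at 7.84 and 8.35 CPM and Gm49291 at 3.68 and 4.08 CPM, against 25.1 and 23.7 CPM for Id4. At PND0 A330033J07Rik was at 4.2 and 11.8 CPM and Gm49291 at 5.54 and 2.98 CPM, against 73.3 and 31.9 CPM. Their part in the Id4 values was not tested.

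Windows before the RefSeq starts were read from the RefSeq promoter table (GRCm38.p6), which held 3 of the 4 genes, Id2, Id3 and Id4. In the table's windows, 2 short motifs were searched in the 250 bases before the start: GGCGCC, a GC-rich box known to bind BMP-activated Smads, and CANNTG, the E-box bound by E protein dimers. Both motifs read the same on either strand, and their matches did not overlap. GGCGCC was present in 9.59% and CANNTG in 66.2% of 32851 promoter windows of the same length. The Id2 and Id4 windows each held 1 GGCGCC, the Id2 window also held 1 E-box, and the Id3 window held neither. The Id2 and Id3 windows lie inside the annotated gene spans given above, because each gene has a longer annotated transcript that starts further upstream, and only the Id4 window lies before its gene. The Id3 window falls in an exon of that transcript. The Id2 stretch (chr12:25096254-25096342, minus strand), which is intronic in the longer Id2 transcript and upstream of the shorter ones, and the Id4 stretch (chr13:48260866-48261115, plus strand) are shown because both genes changed in germ cells, in opposite directions, and capitals mark the motifs.
Id2: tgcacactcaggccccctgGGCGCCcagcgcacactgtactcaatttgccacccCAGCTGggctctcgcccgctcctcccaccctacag
Id4: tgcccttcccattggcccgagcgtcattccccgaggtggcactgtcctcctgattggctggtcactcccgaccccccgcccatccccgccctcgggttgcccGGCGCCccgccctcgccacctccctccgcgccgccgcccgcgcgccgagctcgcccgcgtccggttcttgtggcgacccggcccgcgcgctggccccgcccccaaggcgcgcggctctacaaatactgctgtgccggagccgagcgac

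The 4 genes took different courses in germ-like cells. Id1, Id2 and Id3 were at their highest in PGCs of E8.5 to E11.5, and their means were lowest at PND30 and PND35, whereas Id4 was low in PGCs and highest at PND1 to PND4. Over the 51 pools, Id1 ran from 0.492 CPM at PND35 to 269 CPM at E8.5, and Id2 from 0.246 CPM at PND35 to 188 CPM at E8.5. Id3 ran from 0.486 CPM at PND35 to 509 CPM at E10.5, and Id4 from 6.9 CPM at E10.5 to 194 CPM at PND4. No pool was at or under the floor of 3 UMIs for any of the 4 genes.

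**Figure D1:**
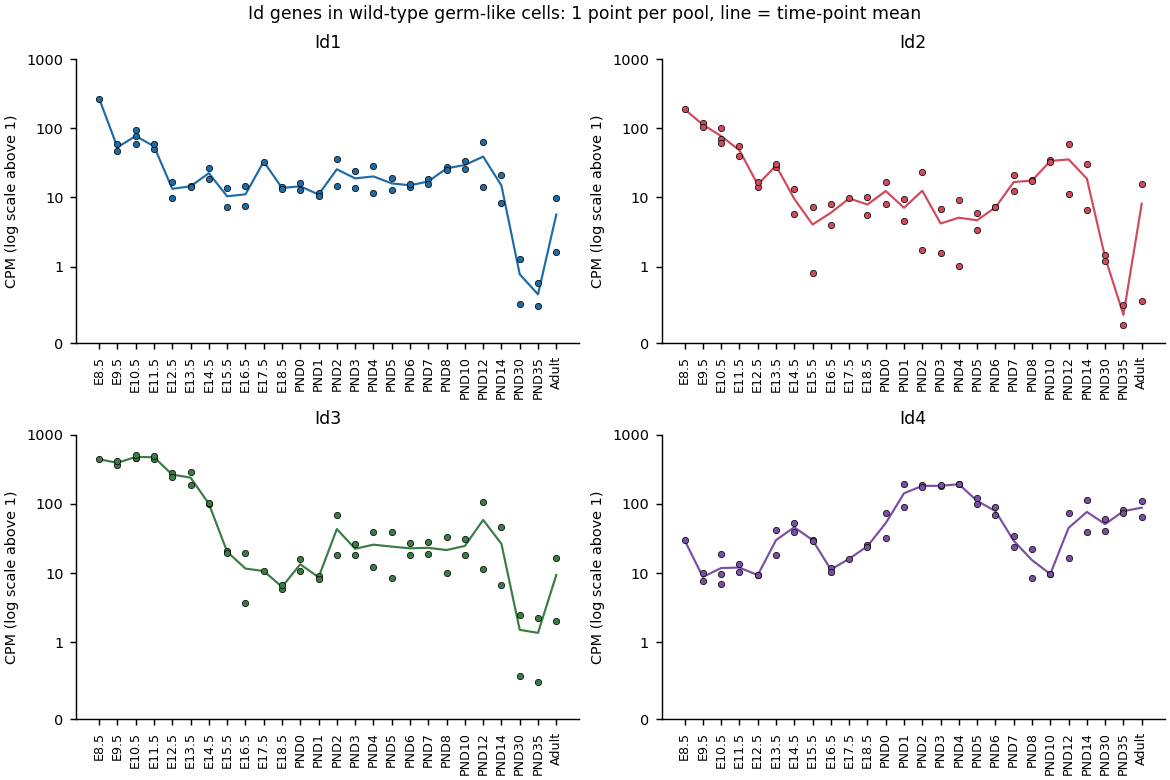
CPM of each Id gene in wild-type germ-like cells against time-point, on an axis that is logarithmic above 1 CPM, with 1 point for each of the 51 pools and a line through the time-point means. Id1, Id2 and Id3 are highest on the left and reach their lowest values at PND30 and PND35, and Id4 peaks between PND1 and PND4 at 90.6 to 194 CPM and is again between 40.9 and 110 CPM at PND30 to adult.

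Id3 was the most persistent of the 3 early genes. It was at 369 and 415 CPM in the E9.5 pools, 457, 465 and 509 CPM at E10.5, 450 and 494 CPM at E11.5, and 246 and 283 CPM at E12.5. It was at 187 and 291 CPM at E13.5, 98.0 and 103 CPM at E14.5, 19.6 and 21.0 CPM at E15.5 and 3.64 and 19.6 CPM at E16.5. The E14.5 pools lay below every earlier pool and above both E15.5 pools. When the 24 time-points with at least 2 pools were ordered by their mean, 6 of the 23 neighbouring pairs did not overlap in their pools for Id3, against 2 for Id1, 4 for Id2 and 4 for Id4. Most neighbours in the order were thus not separated beyond their spread.

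Id1 and Id2 declined earlier than Id3. Id1 stood at 269 CPM in the E8.5 pool, 47.6 and 58.7 CPM at E9.5, 58.3 to 95.7 CPM at E10.5, 50.4 and 59.4 CPM at E11.5 and 9.85 and 16.8 CPM at E12.5. Id2 stood at 188 CPM at E8.5, 106 and 120 CPM at E9.5, 61.0 to 100 CPM at E10.5, 40.3 and 55.8 CPM at E11.5 and 14.1 and 16.6 CPM at E12.5. Both genes were therefore lower in each E12.5 pool than in every pool of E8.5 to E11.5. Id1 then stayed between 7.26 and 36.3 CPM in every pool from E13.5 to PND10. Id2 was higher again at E13.5, at 27.1 and 30.6 CPM, and at PND10, at 32.6 and 34.7 CPM. Neither time-point is in the windows compared below.

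To ask how the genes changed at each step, adjacent windows of time-points were compared with edgeR's quasi-likelihood test over 27480 genes, with all 51 germ-like pools in 1 fit. From E9.5-E10.5 to E11.5-E12.5, when PGCs reach and settle in the gonad, 0 of the 4 Id genes passed the adjusted threshold of 0.05, and 5.34% of all genes did (2.94% higher, 2.40% lower). At an unadjusted p under 0.05 there were 2 Id genes, and DESeq2 called 2. Id1 averaged 67.6 ± 19.1 CPM (SD, n = 5) and then 34.1 ± 24.5 CPM (n = 4), a log2 fold change of -1.27 ± 0.40 (SE; adjusted p = 0.0573). Id2 averaged 91.5 ± 24.9 CPM and then 31.7 ± 19.9 CPM, a log2 fold change of -1.81 ± 0.71 (adjusted p = 0.147). For Id1 the E11.5 pools lay within the range of the earlier window and the E12.5 pools under it, and for Id2 all 4 later pools lay under all 5 earlier ones. Id3 was at 443 ± 53.1 and 368 ± 122 CPM and Id4 at 10.6 ± 4.83 and 10.7 ± 1.96 CPM. The earlier window came from whole embryos, in part of unstated sex, and the later from gonads. Age, tissue and sexing cannot be told apart here.

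From E11.5-E12.5 to E14.5-E15.5, when male PGCs enter mitotic arrest, Id2 and Id3 fell and Id4 rose, while 27.7% of all genes were called (17% higher, 10.6% lower). Id3 went from 368 ± 122 to 60.4 ± 46.3 CPM (n = 4 and 4), with a log2 fold change of -3.15 ± 0.69 and an adjusted p of 0.000744. Id2 went from 31.7 ± 19.9 to 6.81 ± 5.14 CPM (-2.34 ± 0.74 on the log2 scale, adjusted p = 0.017). Id4 went from 10.7 ± 1.96 to 37.9 ± 10.9 CPM, with every later pool at 29.3 CPM or more and above every earlier pool, and a log2 fold change of 1.63 ± 0.40 (adjusted p = 0.00259). Id1 averaged 16.4 ± 8.09 CPM in the later window (adjusted p = 0.0621). The Id2 call was lost without the replicate 2 pools (adjusted p = 0.134) and the Id4 call without the replicate 1 pools (adjusted p = 0.0685).

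From E14.5-E15.5 to E18.5-PND0, the period of quiescent prospermatogonia, Id3 alone of the 4 was called, against 44.4% of all genes (25.6% higher, 18.9% lower). Id3 fell to 9.85 ± 4.68 CPM (n = 4), a log2 fold change of -2.84 ± 0.68 (adjusted p = 0.00145). Id1 was at 14.1 ± 1.48 CPM and Id2 at 10.1 ± 4.82 CPM in the later window. Id4 was at 23.7 and 25.1 CPM in the E18.5 pools and at 31.9 and 73.3 CPM in the PND0 pools, and its window mean of 38.5 ± 23.5 CPM stood beside 37.9 ± 10.9 CPM before (adjusted p = 0.214).

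After birth Id4 climbed to its peak. It was at 90.6 and 194 CPM at PND1, 176 and 188 CPM at PND2, 180 and 184 CPM at PND3 and 191 and 194 CPM at PND4. The 6 pools of PND2-PND4 averaged 185 ± 6.85 CPM and all lay above the 4 pools of E18.5-PND0. The log2 fold change was 2.78 ± 0.40 (adjusted p = 3.32e-06), where 39.6% of all genes were called (17.9% higher, 21.6% lower). Id3 also rose, to 30.4 ± 20.7 CPM (2.03 ± 0.63 on the log2 scale, adjusted p = 0.0117), and Id1 to 21.5 ± 9.71 CPM (0.97 ± 0.38, adjusted p = 0.0442). The Id1 call was lost with size factors of the relative log expression kind (RLE; 0.62, adjusted p = 0.192) and with either replicate left out. Without PND2 replicate 1, a pool of 26 germ-like cells, its adjusted p was 0.159. Id2 averaged 7.26 ± 8.49 CPM (n = 6) and was not called (adjusted p = 0.805), though without the replicate 2 pools it passed as lower (log2 fold change -1.51, adjusted p = 0.0487).

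PND2 replicate 1 held the highest Id1, Id2 and Id3 of its window, at 36.3, 23.2 and 68.2 CPM. The 10 Sertoli markers summed to 553 CPM in that pool, against a median of 177 CPM over the 6 pools, and the 10 interstitial markers to 355 CPM against a median of 159 CPM. All 20 of these markers were above 0 in each of the 6 pools. Their part in the Id1, Id2 and Id3 values was not tested.

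Id4 then fell again as spermatogonia differentiated. It was at 100 and 120 CPM at PND5, 68.3 and 88.8 CPM at PND6, 24.1 and 34.4 CPM at PND7, 8.54 and 22.1 CPM at PND8 and 9.66 and 9.68 CPM at PND10. From PND2-PND4 to PND6-PND7 it went to 53.9 ± 30 CPM (n = 4), a log2 fold change of -1.86 ± 0.38 (adjusted p = 0.00489). It was the only Id gene called, where 3.94% of all genes were (1.43% higher, 2.51% lower). The call was lost without the replicate 1 pools, with a log2 fold change of -1.87 and an adjusted p of 0.0973.

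From PND6-PND7 to PND12-PND14, as meiosis begins, edgeR called 0 of the 4 genes, with 0 at an unadjusted p under 0.05 and 0 by DESeq2, against 13.3% of all genes (10.3% higher, 3.07% lower). The replicates differed widely here, and their cells fell in different clusters. Outside the germ-like cluster high in Sertoli markers lay 6 of 71 cells of PND12 and 192 of 398 cells of PND14 in replicate 1, against 133 of 184 and 365 of 368 in replicate 2. Id4 was at 16.4 and 39.3 CPM in the replicate 1 pools of PND12 and PND14 and at 73.5 and 114 CPM in the replicate 2 pools. Id3 was at 106 and 46.2 CPM in replicate 1 and at 11.51 and 6.73 CPM in replicate 2. Id1 and Id2 sorted in the same way as Id3, at 63.6 and 21.3 CPM and at 59.7 and 30.9 CPM in replicate 1, against 14.3 and 8.36 CPM and 11.2 and 6.54 CPM in replicate 2. The Sertoli markers summed to 1392 CPM in PND12 replicate 1 and 756 CPM in PND14 replicate 1, against 262 and 164 CPM in the replicate 2 pools. Their part in these differences was not tested. Without the replicate 1 pools the Id3 log2 fold change was -0.95 (adjusted p = 0.022), and without the replicate 2 pools it was 1.54 (adjusted p = 0.000938), so its direction followed the replicate.

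From PND12-PND14 to PND35-adult, Id1, Id2 and Id3 fell, where 51.6% of all genes were called (29.6% higher, 22% lower). Id1 was at 0.492 and 0.786 CPM at PND35 and at 1.64 and 9.67 CPM in the adult pools, Id2 at 0.246, 0.500, 0.549 and 15.7 CPM, and Id3 at 2.24, 0.486, 2.02 and 16.7 CPM. The log2 fold changes were -3.33 ± 0.45 for Id1 (adjusted p = 1.65e-06), -3.57 ± 0.78 for Id2 (adjusted p = 0.000506) and -3.10 ± 0.69 for Id3 (adjusted p = 0.000571). Adult replicate 1 held the highest value of all 3 genes, and its Sertoli markers summed to 539 CPM and its 5 Leydig markers to 498 CPM, against 42.8 and 7.2 CPM in adult replicate 2. The 3 genes were still called without that pool. With only the pools of both windows in the fit, none was called (adjusted p = 0.0796 to 0.0892), nor was any of the other genes. Without the germ-like cluster of PND12 and PND14 that was high in Sertoli markers, Id3 was no longer called (log2 fold change -1.35, adjusted p = 0.0862).

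Id4 did not share this late decline. It stood at 74.9 and 82.0 CPM at PND35 and at 65.6 and 110 CPM in adults, a mean of 83.2 ± 19.4 CPM (n = 4) after 60.7 ± 42.4 CPM in the window before. The log2 fold change was 0.78 ± 0.39, with an adjusted p of 0.0952 by edgeR and 0.0126 by DESeq2.

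The share of cells with at least 1 UMI was read after thinning each cell to 50000 UMIs. For Id3 it was 100% in every pool of E10.5 and E11.5, 76.9% and 84.6% at E14.5 and 26.6% and 33.7% at E15.5. For Id4 it was 21.8% and 28.6% at E11.5, 69.2% and 76.9% at E14.5, and 96.0% to 99.3% in the 6 pools of PND2 to PND4. It then went to 45.7% and 56.8% at PND7 and to 89.9% and 90.1% at PND35. The 95% Wilson intervals of the PND7 shares were 38.2% to 53.4% and 48.7% to 64.6%, and they cover counting error only. Id4 transcripts in single cells showed the same course. The median cell at PND2 to PND4 carried 8 or 9 Id4 UMIs of 50000, with 10th percentiles of 2 to 4 UMIs, whereas the median cell at PND7 carried 1 and 0.

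**Figure D2:**
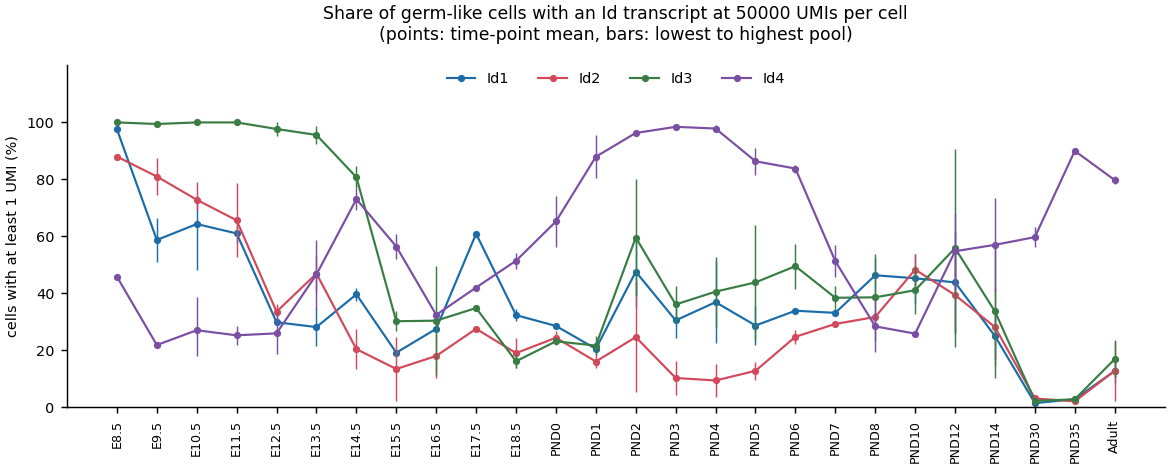
Share of germ-like cells, in percent, with at least 1 UMI of each Id gene after thinning to 50000 UMIs per cell, against time-point, where points are means over pools and bars run from the lowest to the highest pool. Id3 lies between 92.4% and 100% in the pools of E8.5 to E13.5, and Id4 is at 96.0% to 99.3% in the pools of PND2 to PND4 and falls to 19.2% and 37.5% at PND8.

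Cells with UMIs of all 4 Id genes were more common at E9.5-E10.5 than at PND35-adult, counted in replicates 1 and 2 only. At E9.5-E10.5, 13.8% of the replicate 1 cells and 19.3% of the replicate 2 cells held UMIs of all 4 genes, and 0% held none. A count of 0 among these 174 and 181 cells allows shares of up to 1.72% and 1.66%. The share with all 4 genes did not fall steadily, at 2.78% and 0.816% at E18.5-PND0 and 8.62% and 1.93% at PND12-PND14. At PND35-adult it was 1.04% and 0%, and 68.8% and 74.8% of cells held exactly 1. The 0 of 754 cells allows a share of up to 0.398%.

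E proteins, the dimer partners of Id proteins, were detected in each window. Tcf3 was at 193 ± 40.3 CPM at E9.5-E10.5 (n = 5) and 160 ± 21.3 CPM at E14.5-E15.5 (n = 4), and it fell to 63.7 ± 9.93 CPM at E18.5-PND0 (adjusted p = 0.000181). In PND35-adult pools Tcf3 was at 18 ± 27.3 CPM and Tcf12 at 17.7 ± 24.4 CPM, both called lower than at PND12-PND14 (adjusted p = 3.43e-06 and 3.18e-06). The 4 late pools ranged from 3.73 to 58.9 CPM for Tcf3 and from 5.14 to 54.3 CPM for Tcf12. Tcf4 was at 61.3 ± 10.6 and 69.9 ± 4.17 CPM in those windows and was called higher (adjusted p = 0.0163). At E18.5-PND0 Tcf4 was called lower on the TMM scale (log2 fold change -0.47 ± 0.19, adjusted p = 0.0429), although its pools ran from 81.7 to 116 CPM before and from 89.2 to 110 CPM after. In that comparison RLE size factors move every log2 fold change up by 0.41.

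Of the 28 BMP pathway genes on the list, 8 were higher and 4 lower at E14.5-E15.5 than at E11.5-E12.5, with a median log2 fold change of 0.57 for the list and 0.10 for all genes, of which 17% were higher and 10.6% lower. Smad9, a BMP receptor-activated Smad, was at 0 CPM in the 4 earlier pools and at 3.55 ± 2.04 CPM in the later ones (adjusted p = 1.36e-05). The ligand Bmp8a went from 0.300 ± 0.406 to 1.63 ± 1.32 CPM (adjusted p = 0.000165), and the BMP antagonist Nog from 0 to 0.185 ± 0.109 CPM (adjusted p = 0.0487). At the step before, 1 gene of the list was higher and 1 lower, where 2.94% of all genes were higher and 2.40% lower. The list genes called were Smurf1, a ubiquitin ligase for Smads, at 1.91 ± 0.717 and then 6.53 ± 5.43 CPM (adjusted p = 0.0115), and Smad9, at 0.545 ± 0.873 CPM and then 0 (adjusted p = 0.00471).

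At E18.5-PND0, 10 BMP genes were higher and 5 lower than at E14.5-E15.5, with medians of 0.84 for the list and 0.76 for all genes, of which 25.6% were higher and 18.9% lower. The ligand Bmp6 went from 0.130 ± 0.155 to 4.35 ± 1.04 CPM (adjusted p = 0.000462), the antagonist Grem1 from 0.388 ± 0.776 to 6.19 ± 2.91 CPM (adjusted p = 0.0182) and the ligand Gdf6 from 0.0626 ± 0.125 to 2.28 ± 1.01 CPM (adjusted p = 0.011). At PND2-PND4, 5 were higher and 10 lower, where 17.9% of all genes were higher and 21.6% lower. Grem1 was back at 0.392 ± 0.474 CPM, Gdf6 at 0.0110 ± 0.0269 CPM and the ligand Bmp5 at 0.00348 ± 0.00853 CPM (adjusted p = 0.0185, 0.00094 and 0.00666). Marker sums of other cells were also highest at E18.5-PND0, with medians at E14.5-E15.5, E18.5-PND0 and PND2-PND4 of 25.2, 273 and 159 CPM for the interstitial, 57.7, 243 and 177 CPM for the Sertoli and 40.4, 377 and 114 CPM for the blood markers, and their part in the BMP values was not tested.

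Bmp4, the ligand that induces PGCs in the early embryo, was the only one of 28 BMP genes called between PND2-PND4 and PND6-PND7, at 9.82 ± 4.83 CPM (n = 6) and then 1.06 ± 0.553 CPM (n = 4; adjusted p = 0.0019). Of all genes, 1.43% were higher and 2.51% lower at that step. Between PND6-PND7 and PND12-PND14, 1 of the 28 genes was higher and 2 lower, where 10.3% of all genes were higher and 3.07% lower. Smad7, an inhibitory Smad, went from 21.9 ± 5.28 to 4.16 ± 2.26 CPM (adjusted p = 2.66e-05), the receptor Acvr1 from 6.49 ± 1.77 to 1.65 ± 0.194 CPM (adjusted p = 0.00556) and the ligand Gdf5 from 0.115 ± 0.169 to 0.907 ± 0.967 CPM (adjusted p = 0.035). At PND35-adult 8 were higher and 11 lower, where 29.6% of all genes were higher and 22% lower. The lower ones included Fst, an antagonist of activins and BMPs, at 13.1 ± 12.2 and then 0.828 ± 1.12 CPM (adjusted p = 8.83e-07). Bmp5 and Gdf6, also called there, stayed under 0.1 CPM on average.

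Other bHLH genes, only some of which are partners of E proteins, were counted over a list of 23. At E14.5-E15.5, 11 were higher and 1 lower, with a median log2 fold change of 1.22 against 0.10 for all genes, of which 17% were higher and 10.6% lower. Sohlh1, a germ cell bHLH factor needed for spermatogonial differentiation, went from 0.0606 ± 0.0773 to 97.5 ± 96.0 CPM (adjusted p = 1.41e-09). Mesp1 and Tal1, factors of mesoderm and blood, went from 0 to 1.35 ± 1.41 and to 1.27 ± 1.23 CPM (adjusted p = 0.00413 and 0.00542). At PND35-adult, 5 were higher and 12 lower, against 29.6% and 22% of all genes. Ascl2, an achaete-scute family factor, was at 43.4 ± 11.8 and then 5.18 ± 9.54 CPM (adjusted p = 1.26e-06), and Neurog3, found in undifferentiated spermatogonia, at 0.953 ± 0.770 and then 0.109 ± 0.205 CPM (adjusted p = 0.00589). At the other steps the list had 3 higher and 3 lower (E11.5-E12.5, where 2.94% and 2.40% of all genes were), 9 and 1 (E18.5-PND0, 25.6% and 18.9%), 2 and 5 (PND2-PND4, 17.9% and 21.6%), 0 and 0 (PND6-PND7, 1.43% and 2.51%) and 1 and 1 (PND12-PND14, 10.3% and 3.07%). The 0 of PND6-PND7 is by edgeR, with 9 genes at an unadjusted p under 0.05.

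As a description, the genes with courses most like each Id gene were found by Pearson r of log2(CPM + 1) over the 51 germ-like pools, among 5640 genes with a mean of at least 5 on that scale. Pools of neighbouring ages share cell states, so these points are not independent. For Id3 they were Alg13 and Nmral1 (r = 0.94 each) and the brain creatine kinase Ckb (0.93). For Id2 they were the stem cell factor receptor Kit (0.86), the matrix protein gene Sparc (0.85) and the kinase gene Akt1 (0.85). For Id1 they were Lhpp and Mbtps1 (0.88 each) and Hmces (0.87), and for Id4 Scmh1 (0.80), a Polycomb component, Serinc3 (0.76) and Ensa (0.74). Among the Id genes, r was 0.85 for Id1 with Id2, 0.79 for Id1 with Id3 and 0.81 for Id2 with Id3, and -0.38, -0.58 and -0.47 for Id4 with Id1, Id2 and Id3.

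Germ cells were next set against the cells of the Negative gate from the same gonads, in 16 pools of E11.5 to E18.5. Id1, Id2 and Id3 were lower in the BVSC-positive gate in 16 of 16 pools. Id4 was lower there in 6 of 6 pools of E11.5-E13.5 and in 2 of 10 pools of E14.5-E18.5. Id1 was 27.8 ± 21.3 CPM in the positive and 340 ± 126 CPM in the Negative gate at E11.5-E13.5 (n = 6), and it ran from 7.52 to 38.6 CPM (median 13.6) against 71.1 to 429 CPM (median 199) at E14.5-E18.5 (n = 10). The log2 fold changes, fitted with the pool as a block, were -3.85 ± 0.30 for Id1 (adjusted p = 2.22e-09), -4.34 ± 0.32 for Id2 (adjusted p = 1.06e-09) and -2.86 ± 0.58 for Id3 (adjusted p = 0.000313), where 59.7% of 21368 genes were called (38.8% higher, 20.9% lower). Id4 was not called over all 16 pools (-0.50 ± 0.39, adjusted p = 0.28).

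The gate difference itself changed between E11.5-E13.5 and E14.5-E18.5 for Id3 and Id4, where 16.7% of all genes were called (8.92% higher, 7.77% lower). At E11.5-E13.5 the positive gate held 192 to 494 CPM of Id3 (median 290) and the Negative gate 400 to 592 CPM (median 496). At E14.5-E18.5 the positive gate held 3.6 to 111 CPM (median 16.4) and the Negative gate 142 to 530 CPM (median 352). The Id3 difference became more negative by 3.67 on the log2 scale (-3.67 ± 0.68, adjusted p = 0.00117).

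Id4 was lower in the positive gate in 6 of 6 pools at E11.5-E13.5, with 9.29 to 42.1 CPM (median 12) against 18.1 to 87.2 CPM (median 52.3). At E14.5-E18.5 it was higher in the positive gate in 8 of 10 pools, with 4.59 to 52.7 CPM (median 24.0) against 1.63 to 39.3 CPM (median 23.6). The 2 exceptions were both E16.5 pools, at 11.2 and 10.6 against 28.8 and 34.4 CPM. The Negative sums of E17.5 and E18.5 held only 13, 14, 16 and 4 Id4 UMIs. Between the periods the Id4 mean went from 17.2 to 24.2 CPM in the positive and from 53.9 to 19.6 CPM in the Negative gate. The gate difference of Id4 changed by 2.02 ± 0.63 on the log2 scale (adjusted p = 0.0312). This call was lost without replicate 1 (adjusted p = 0.14) and without replicate 2 (adjusted p = 0.49). The later period is also the one sorted on Stella-ECFP alone, so the sort and the age cannot be told apart. The Sertoli markers summed to 1378 CPM in the positive gate of E17.5 replicate 1, and to 24.5 to 379 CPM in the other 15 pools. The Negative cells of E16.5 replicate 2 fell in unnamed clusters, and E17.5 replicate 1 had 83 unnamed and 0 germ-like cells over both gates. Without these 2 pools the calls of Id3 and Id4 remained.

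**Figure D3:**
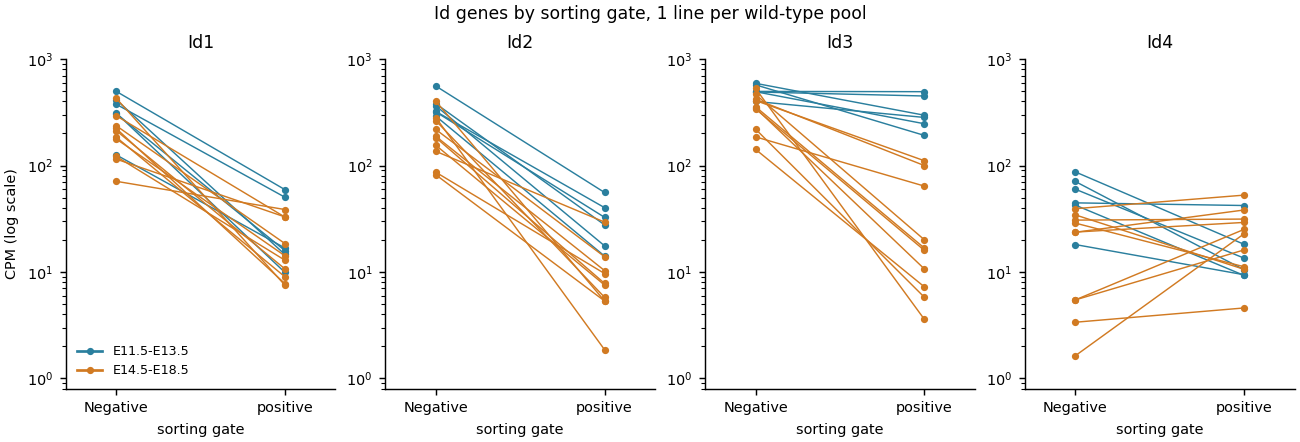
CPM of each Id gene, on a log axis, in the Negative and the reporter-positive gate, with 1 line for each of 16 wild-type pools, blue for E11.5-E13.5 and orange for E14.5-E18.5. All lines of Id1, Id2 and Id3 go down from the Negative to the positive gate, and those of Id4 go down in 6 of 6 early pools and up in 8 of 10 later pools.

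Of the E proteins, Tcf4 was at 87.3 ± 21.2 CPM in the positive and 213 ± 78.9 CPM in the Negative gate (n = 16 each; adjusted p = 4.64e-07) and Tcf12 at 40.9 to 91.4 CPM (mean 66.8) and 64.7 to 149 CPM (mean 106) (adjusted p = 2.97e-06). Of the 28 BMP genes, 3 were higher and 8 lower in the positive gate, where 38.8% of all genes were higher and 20.9% lower. The ligand Bmp2 was at 4.99 ± 6.12 against 14.1 ± 12.1 CPM (adjusted p = 0.039), while the ligand Bmp8b was at 2.89 ± 3.86 against 0.500 ± 1.08 CPM (adjusted p = 0.0258). Of the 20 bHLH genes tested, 8 were higher and 8 lower, and the lower ones included Tcf21, a marker of gonadal stroma, at 3.83 ± 7.60 against 244 ± 175 CPM, and the Notch target Heyl at 2.44 ± 3.03 against 66.6 ± 54.0 CPM (adjusted p = 3.04e-08 and 1.87e-07).

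In Sertoli-like cells, the supporting cells of the cords, Id3 was lower after birth than before it. Over the pools of E12.5 to E18.5 with at least 10 cells, Id3 ranged from 318 to 591 CPM, and over those of PND0 to PND8 from 86.0 to 336 CPM. The difference was called (log2 fold change -1.18 ± 0.29, adjusted p = 0.00892), where 6.13% of 17658 genes were called (1.79% higher, 4.34% lower). Every foetal pool but that of E16.5 (318 CPM) lay above every postnatal pool. The fit held Sertoli-like and interstitial-like sums, 38 from 24 pools, and treated sums of the same pool as independent. The call was lost without replicate 1 (adjusted p = 0.133), without replicate 2 (adjusted p = 0.305) and with sums of at least 20 cells (adjusted p = 0.334). Id1 was 115 to 301 CPM before birth and 8.41 to 155 CPM after it (adjusted p = 0.0585 by edgeR and 0.0372 by DESeq2). At PND14 Id2 was at 429 and 662 CPM in Sertoli-like cells, above its 38.3 to 383 CPM of E12.5 to E18.5.

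In interstitial-like cells edgeR called 0 of the 4 genes between the same periods, with 1 at an unadjusted p under 0.05 and 0 by DESeq2, and 11.7% of all genes were called (6.14% higher, 5.54% lower). Id3 was at 142 to 665 CPM before and 208 to 945 CPM after birth (log2 fold change 0.52 ± 0.24, adjusted p = 0.144). Id4 was at 1.18 to 118 CPM before and 3.98 to 40.7 CPM after birth (-0.85 ± 0.52, adjusted p = 0.302). Tcf3 fell from 124 ± 23.4 to 72.0 ± 32.4 CPM and Tcf12 from 135 ± 31.6 to 81.1 ± 24.9 CPM (n = 13 and 10; adjusted p = 0.0032 and 0.00805). In these cells 3 of 27 BMP genes tested were lower and 0 higher. In Sertoli-like cells 2 of 27 were lower and 0 higher, where 4.34% of all genes were lower and 1.79% higher. Sertoli-like Id4 was at 78.4 and 80.5 CPM at PND14 and 103 CPM in the adult pool, and the germ-like pools of the same ages held 39.3 and 114 CPM at PND14 and 65.6 and 110 CPM in adults. The part of germ cell RNA in the Sertoli-like values was not tested.

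**Figure D4:**
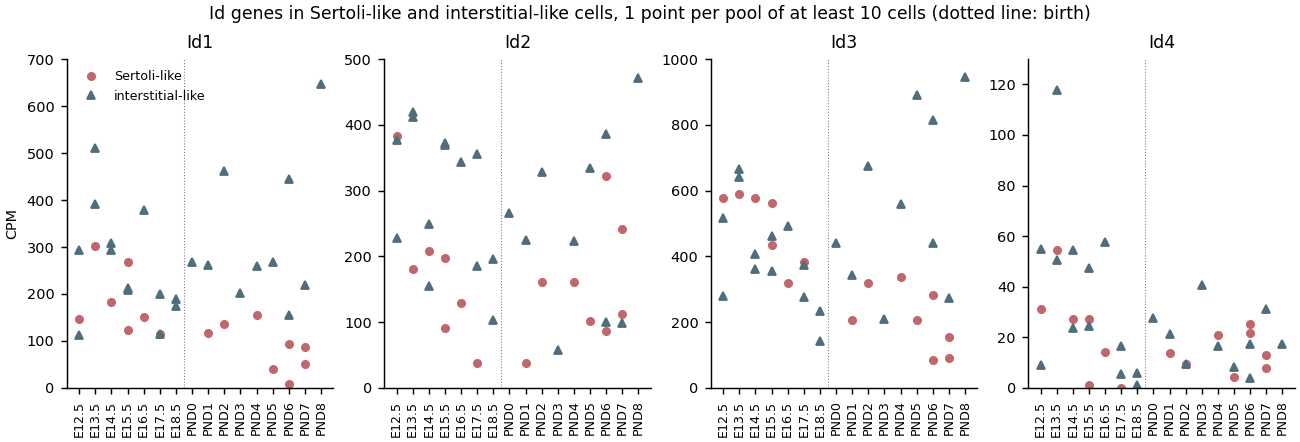
CPM of each Id gene in Sertoli-like cells (circles) and interstitial-like cells (triangles) against time-point from E12.5 to PND8, with 1 point per pool of at least 10 cells and a dotted line at birth. Id3 of Sertoli-like cells lies at 318 to 591 CPM before birth and 86.0 to 336 CPM after it, and Id4 reaches at most 54.5 CPM in Sertoli-like and 118 CPM in interstitial-like pools.

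Clusters of early embryonic cells also held all 4 transcripts. Endoderm-like cells of E6.5 to E8.5 held 294 to 376 CPM of Id1, 84.8 to 439 CPM of Id2 and 348 to 516 CPM of Id3 over 7 pools, with Id4 at 0.458 to 10.1 CPM. The highest Id3 and Id4 came from E7.5 replicate 4, where the germ markers summed to 1122 CPM, against 44.6 to 377 CPM in the other 6 pools and 1549 CPM in the E8.5 germ-like pool, and the part of germ cells in its values was not tested. Without it Id3 reached 445 CPM and Id4 6.2 CPM. Epiblast-like cells of E6.5 held 126 CPM of Id1, 123 CPM of Id2, 429 CPM of Id3 and 9.31 CPM of Id4 in 1 pool. In the 2 mesoderm-like pools Id1 was at 288 and 304 CPM and Id3 at 408 and 395 CPM.

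Spermatogonia were split by transcript, since Gfra1, the GDNF receptor, marks undifferentiated SPG and Stra8 responds to retinoic acid. Cells with a Gfra1 and no Stra8 UMI at 50000 UMIs were set against the reverse in the 5 pools of PND3 to PND8 with at least 10 cells of both, which were those of PND3, PND4 and PND5 replicate 2. These pools held 12 to 23 Gfra1-positive and 10 to 20 Stra8-positive cells each. Without thinning, only 2 to 7 cells per pool held Gfra1 without Stra8, and 2 to 8 the reverse. Most cells of either kind thus also held UMIs of the other gene at full depth. Id4 was at 154 to 237 CPM (median 193) in Gfra1-positive and 57.9 to 177 CPM (median 131) in Stra8-positive cells, and was higher in the former in 4 of 5 pools. The exception was PND3 replicate 2, with 154 against 177 CPM. The log2 fold change of Id4 was 0.72 ± 0.16 (adjusted p = 0.0522), so that edgeR called 0 of the 4 genes, with 1 at an unadjusted p under 0.05 and 0 by DESeq2, where 0.132% of 15883 genes were called (0.0881% higher, 0.0441% lower). Id1 was at 12.1 ± 10.4 against 17.3 ± 11.9 CPM, Id2 at 2.67 ± 2.56 against 6.34 ± 6.48 CPM and Id3 at 9.38 to 35.8 CPM (median 18.7) against 7.14 to 40.9 CPM (median 25.6; n = 5). The Sertoli markers summed to 20.6 to 251 CPM in Gfra1-positive and 29.3 to 484 CPM in Stra8-positive cells and were higher in the latter in 4 of 5 pools, as were the interstitial markers, most in PND3 replicate 2 (128 against 681 CPM), and their part in the Id values was not tested. Id4 passed in edgeR without the replicate 2 pools (log2 fold change 0.99, adjusted p = 0.00126). That fit rested on PND3 and PND4 replicate 1 only, at 237 against 131 and 229 against 107 CPM. It left out PND3 replicate 2, the exception above.

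Along the E13.5 to E16.5 gonad, cut by its position to the mesonephros, no Id gene was called between distal and proximal germ cells in 8 pools. edgeR called 0 of 4, with 0 at an unadjusted p under 0.05 and 0 by DESeq2, and 0.00577% of 17340 genes were called. Id4 was at 25.3 ± 14.9 CPM in distal and 30.5 ± 14.6 CPM in proximal cells and was lower in distal cells in 7 of 8 pools (log2 fold change -0.32 ± 0.17, adjusted p = 0.999).

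At PND30 cells were sorted by DNA content. Id4 was at 75.1 and 71.3 CPM in the 4N gate, which holds primary spermatocytes, 23.6 and 64.2 CPM in the 2N gate and 12.1 and 8.09 CPM in the haploid 1N gate. It was lower in 1N than in 4N cells by both replicates (log2 fold change -2.58 ± 0.41, adjusted p = 5.97e-07), where 49.4% of 15631 genes were called (29.7% higher, 19.7% lower). Id1 to Id3 were at most 4.05 CPM in any gate and were filtered out as low. Tcf4 also fell, from 65.5 ± 8.35 to 30.1 ± 8.70 CPM (n = 2; adjusted p = 0.0445). Among 16 BMP genes tested, 5 were higher and 4 lower in 1N cells, including the inhibitory Smad6, at 32 ± 23.1 in 4N and 104 ± 4.14 CPM in 1N cells (adjusted p = 5.37e-06). Of 10 bHLH genes, 3 were higher and 0 lower, among them Atoh8 at 203 ± 25.2 and 322 ± 97.6 CPM (adjusted p = 0.00854).

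Clusters of late germ cells gave Id4 a second range of levels, described here without a test. Taken as wholes, cluster 31 of PND12 and PND14 and cluster 32 of the adult were the highest of those named here, at 131 and 113 CPM. Both had Tesmin, a meiotic gene, among their leading genes. In cluster 32, 317 of 318 cells came from adult replicate 1. Its Sertoli and Leydig markers summed to 535 and 495 CPM, and their part in the Id4 value was not tested. Cluster 29 of PND10 and PND14, led by Prss50 and Stra8, was at 16.1 CPM, with pools at 11.3, 13.3 and 22.5 CPM. The main PND30-to-adult clusters 10 and 11 were at 77.4 and 85.7 CPM, and the spermatid clusters 33 and 34, led by Prm1 and Hmgb4, were at 13.6 and 11.4 CPM. Cluster 28, also with Tesmin among its leading genes, was mixed, with 6.40 CPM in its PND8 pool and 83.8 to 201 CPM in the others.

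**Figure D5:**
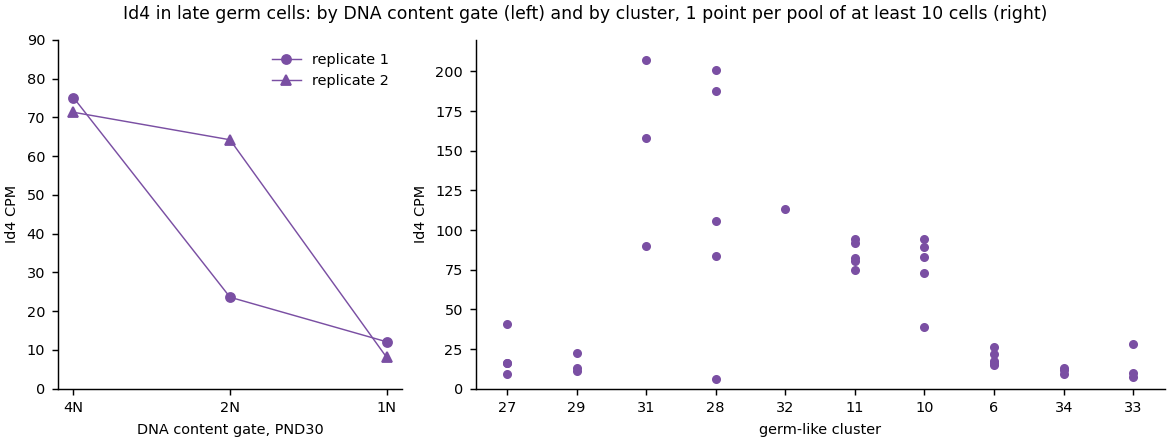
Id4 CPM by DNA content gate at PND30 (left, 1 line per replicate) and in late germ-like clusters (right, 1 point per pool of at least 10 cells). The 4N gate lies at 71.3 and 75.1 CPM and the 1N gate at 8.09 and 12.1 CPM, and clusters 33 and 34 lie low with the exception of 1 pool at 28.5 CPM.

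Last, Helq null was compared with wild-type BVSC-positive germ cells at the 6 time-points with both genotypes. Helq itself was at 15.9 to 39.6 CPM (median 23.5) in the 9 null pools and 15.1 to 27.7 CPM (median 22.8) in the 12 wild-type pools. UMIs here come from the 3′ end of transcripts, so a deletion in exon 1 is not checked by these counts. edgeR called 0 of the 4 Id genes, with 1 at an unadjusted p under 0.05 and 1 by DESeq2, where 0.714% of 21575 genes were called (0.283% higher, 0.431% lower). Id1 was at 16.3 to 114 CPM (median 26.4) in null and 7.78 to 59.4 CPM (median 15.2) in wild-type pools, and the ranges overlapped. Its log2 fold change was 0.83 ± 0.24 (adjusted p = 0.157 by edgeR and 0.0433 by DESeq2). Id2 was at 20.3 ± 14.3 against 19.4 ± 16.4 CPM, Id3 at 164 ± 147 against 185 ± 172 CPM and Id4 at 29 ± 16.7 against 25.2 ± 14.1 CPM. An example for Id3 was chosen after its values were seen. At E15.5 the null pools held 67.2 and 112 CPM of Id3 and the wild-type pools 16.8 and 20.1 CPM. At E13.5 the null pools held 235 and 104 CPM and the wild-type pools 192 and 297 CPM, so the ranges overlapped there.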

How the data were processed

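Single cells were profiled by STRT-seq, which counts the 3′ ends of transcripts by unique molecular identifiers (UMIs). The authors deposited 1 table of UMI counts per gene and cell, not normalized, and the submitters' notes name UMI-tools, STAR, featureCounts of Subread and CASAVA 1.8 with the mm10 genome. The strand setting of the counting is not given in the sources used here. The sample labels name libraries only, so time-point, replicate, gate and genotype come from another deposited table that describes each cell. Cells with more than 2000 genes and 10000 to 1000000 UMIs were kept (11598 wild-type, 1094 Helq null). They were clustered with scanpy 1.11.5 (1000 variable genes, 30 components, resolution 1), leaving out 139 genes of the lists and markers, and 995 wild-type cells stayed unnamed. No doublet caller was run. Raw counts were summed over at least 10 cells of a pool and class and tested with edgeR 4.0.16 (quasi-likelihood, TMM, Benjamini-Hochberg, threshold 0.05) in R 4.3.3. DESeq2 1.42.0, RLE size factors, no filter, other cell sets, a replicate block and leaving out each replicate were alternatives. The gate fit had the pool as a block. The tests were tested on simulated data. Shares carry 95% Wilson intervals, and intervals and floors cover counting error only.

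The named genes were the 4 Id genes, the 3 E proteins, up to 3 genes of the BMP and bHLH lists with the largest change past the threshold in each comparison, and the 3 genes most like each Id gene. A result on 1 gene that this rule names is not reported here. Members and lists were chosen with earlier results of these data known.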

Additional observations from a re-analysis of the deposited data

Results flagged for a closer look

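In 9 of 48 groups of pools 1 pool stood apart by Dixon's criterion, which chance meets in about 1 of 20 groups. In adult replicate 1 this held for Id1 (9.67 CPM), Id2 (15.7 CPM) and Id3 (16.7 CPM) among the 4 PND35-adult pools. The Sertoli and Leydig markers of that pool summed to 539 and 498 CPM, and their part in these values was not tested. Id2 stood apart in PND2 replicate 1 (23.2 CPM), a pool of 26 germ-like cells, in the positive gate of E17.5 replicate 1 (29.4 CPM), where the Sertoli markers summed to 1378 CPM, and in the Negative gate of E11.5 replicate 2 (558 CPM). Id4 stood apart in E10.5 replicate 2 (18.9 CPM), PND0 replicate 1 (73.3 CPM) and the positive gate of E13.5 replicate 1 (42.1 CPM).

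The difference between the positive and the Negative gate changed from E11.5-E13.5 to E14.5-E18.5 by -3.67 on the log2 scale for Id3 and by 2.02 for Id4, by the interaction term of the edgeR fit.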

How the results depend on the processing

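Of 479 alternative values of an Id gene's log2 fold change, 439 kept their direction and side of the threshold, 19 lost the call, 20 gained one and 1 reversed, Id3 between PND6-PND7 and PND12-PND14 without replicate 1 (-0.95). Of 123 alternative counts of Id genes called, 102 stayed within 1.5 times, and where a count moved the cause was not tested. At E11.5-E12.5 the count of 0 became 2 with DESeq2, 1 without the filter, 3 with only the pools of both windows and 1 with all BVSC-positive cells. With only the pools of both windows it went from 3 to 0 at PND35-adult. Without the filter it was 1 for the change of the gate difference, 1 for Gfra1 against Stra8, 2 for PND30 and 1 for Helq, where DESeq2 also gave 1. In Sertoli-like cells it was 2 with DESeq2 and with RLE size factors and 0 with at least 20 cells. Leaving out 1 replicate gave 0 to 1 at PND6-PND7, 1 to 1 at PND12-PND14, 1 to 1 for the change of the gate difference, 0 to 0 in Sertoli-like cells and 0 to 1 for Gfra1 against Stra8.

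Over all genes, the calls at E11.5-E12.5 were 1468, with 2903 by DESeq2, 2232 with only both windows' pools and 209 to 484 with a replicate left out. At PND6-PND7 they were 1084, with 2586 by DESeq2 and 168 to 206 with a replicate left out, and at PND12-PND14 3664, with 331 to 3515. For the change of the gate difference they were 3567, with 6174 by DESeq2 and 627 to 723, in Sertoli-like cells 1082, with 166 to 208, and in interstitial-like cells 2062, with 209 to 479. For Helq they were 154, with 531 by DESeq2 and 330 without the filter, and for Gfra1 against Stra8 21, with 45 and 176. RLE size factors moved the median of all genes by 0.41 at E18.5-PND0, -0.34 at PND2-PND4, 0.23 at PND35-adult and for the change of the gate difference and 0.11 for the gate.

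Replicate numbers did not pair the pools, since deviations of replicate 1 correlated between time-points by -0.30 to 0.56 (median 0.00, 15 of 276 pairs over 0.1). The replicate block gave 0, 3, 1, 3, 1, 0 and 3 Id genes in the 7 germ window comparisons, the counts without it. The gate count was 3 without the block. Gfra1 against Stra8 with at least 20 cells or no thinning, and PND30 without a replicate, were not run. Leaving out PND2 replicate 1, PND12 replicate 1, adult replicate 1, E16.5 replicate 2 with E17.5 replicate 1 or the cluster high in Sertoli markers was chosen after seeing the data.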
